A study of Mus musculus with 2 samples.

Results

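Among the genes that the tumour suppressor p53 switches on, 10 that act in growth arrest or the damage response, outside the Bcl2 family and the CDK inhibitors, were followed after AIMP3 depletion in mESCs. The members are *Btg2*, *Ccng1*, *Sesn1*, *Phlda3*, *Perp*, *Zmat3*, *Gadd45a*, *Trp53inp1*, *Sfn* and *Dcxr*. They were found on the arrays through the transcript accession of each probe, matched to these symbols through RefSeq transcripts. A probe listed under any other accession was not counted. The accessions gave 11 probes for the 10 members, of 24052 genes tested in all. All 11 probes passed the scanner software's background test in each channel of each array, so no member was lost to the filter on dim probes.

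The mESCs carry the genotype AIMP3f/f;cre-ERT2, in which tamoxifen activates a Cre recombinase that removes the floxed *AIMP3* gene. AIMP3-depleted cells received 2 μM tamoxifen for 4 days, and control cells received ethanol over the same time, both in medium with LIF, a cytokine that keeps mESCs undifferentiated. Each of 2 AIMP3-depleted replicates was labelled with Cy5 and set against 1 pool of control RNA in Cy3 on a 2-colour Agilent array. The control cells carry the same alleles, so an effect of tamoxifen or of active Cre cannot be told apart from loss of AIMP3. The dyes were not swapped, so a dye difference that is particular to a gene cannot be told apart from depletion either. The pool is 1 control sample, which leaves the spread between control cultures out of every test. The labels do not say how many clones the line came from, and they state that the cells were generally grown on fibroblast feeder layers. The study's methods state that drug incubations of mESCs were done in medium conditioned by such fibroblasts.

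Values are log2 ratios of AIMP3-depleted over control signal, so 1 is a doubling and 0 is no difference. A gene was called raised or lowered when its mean ratio passed 1.5-fold, a log2 ratio of 0.58, with an unadjusted p under 0.05 in limma. Adjusted p-values are Benjamini-Hochberg values over all tested genes. Across both arrays the median signal over local background lay between 2.68 and 3.31, and between 59.3% and 60.6% of spots in a channel were well above background. *Eef1e1*, the gene that encodes AIMP3, had log2 ratios of -0.90 and -0.90 on the arrays of replicates 1 and 2. *Trp53*, which encodes p53 itself, had -0.12 and -0.16, which stayed under 1.5-fold (adjusted p = 0.0333 by limma) and turned to 0.05 with median centring of each array in place of loess.

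p53 is a transcription factor that is held at a low level by the ubiquitin ligase MDM2 and accumulates when DNA is damaged. It binds DNA as a tetramer, at a response element made of a pair of decamer half-sites, and raises transcription of genes nearby. Its target genes encode proteins that halt the cell cycle, dampen growth signalling, repair DNA or kill the cell. The members here act mainly in arrest, signalling, RNA control and metabolism, and some, such as *Perp*, also have a role in cell death.

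Promoter sequences, from 250 bases before to 50 after each transcription start, were taken from RefSeq on GRCm38.p6 and searched for the p53 half-site on both strands. They were available for 7 of the 10 members, in 8 windows because *Sesn1* has a pair of promoters. *Perp*, *Zmat3* and *Trp53inp1* had no entry. An exact half-site of 10 bases stood in 3 of the 8 windows (37.5%), against 8.36% of all 32851 promoters. A pair of half-sites with at most 2 mismatches in all and a spacer of up to 13 bases was found in the same 3 windows, against 10.1% of all promoters. For comparison, 14 of 62 promoters of other p53-activated genes held a half-site (22.6%), and 0 of 20 promoters of paralogs of the members did. The stretches with these matches are shown because they allow the sequence and the measured ratio of a gene to be set side by side, and capitals mark both half-sites of a pair.
*Ccng1*, chr11:40755442-40755501, minus strand: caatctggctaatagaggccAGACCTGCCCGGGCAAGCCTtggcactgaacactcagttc
*Gadd45a*, chr6:67037418-67037483, minus strand: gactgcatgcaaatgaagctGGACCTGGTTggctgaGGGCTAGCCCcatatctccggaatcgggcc
*Sesn1*, chr10:41887233-41887295, plus strand: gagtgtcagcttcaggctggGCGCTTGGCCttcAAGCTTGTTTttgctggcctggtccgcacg
The *Ccng1* pair had 1 mismatch and no spacer, and began 195 bases before the start. The *Gadd45a* pair had 2 mismatches around a spacer of 6 bases and began 56 bases before the start. The *Sesn1* pair had 2 mismatches around a spacer of 3 bases and lay 186 bases before the start of its downstream promoter. The windows of *Btg2*, *Phlda3*, *Sfn* and *Dcxr* and the upstream *Sesn1* promoter held no match, which says nothing of sites farther away. A match describes the letters only, and binding of p53 was not measured.

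Of the 10 members, 7 were raised in AIMP3-depleted mESCs and 0 were lowered. Across all tested genes 5.52% were raised and 0.79% lowered. The members were chosen with earlier results of these data known, so the excess is a description and not an independent finding. The members called raised were *Perp*, *Phlda3*, *Ccng1*, *Btg2*, *Trp53inp1*, *Sfn* and *Dcxr*, while *Zmat3*, *Sesn1* and *Gadd45a* were not called. Their median log2 ratio was 0.64, against 0.02 over all tested genes. It was 0.66 on each array. On both arrays 8 members had a positive ratio, against 45.3% of all tested genes. Disregarding size, 8 members were above 0 with an adjusted p under 0.05 and *Gadd45a* was below 0 with one (30.6% and 23.7% of all genes, respectively). The median SD between arrays was 0.046 over the members and 0.048 over all genes.

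**Figure D1:**
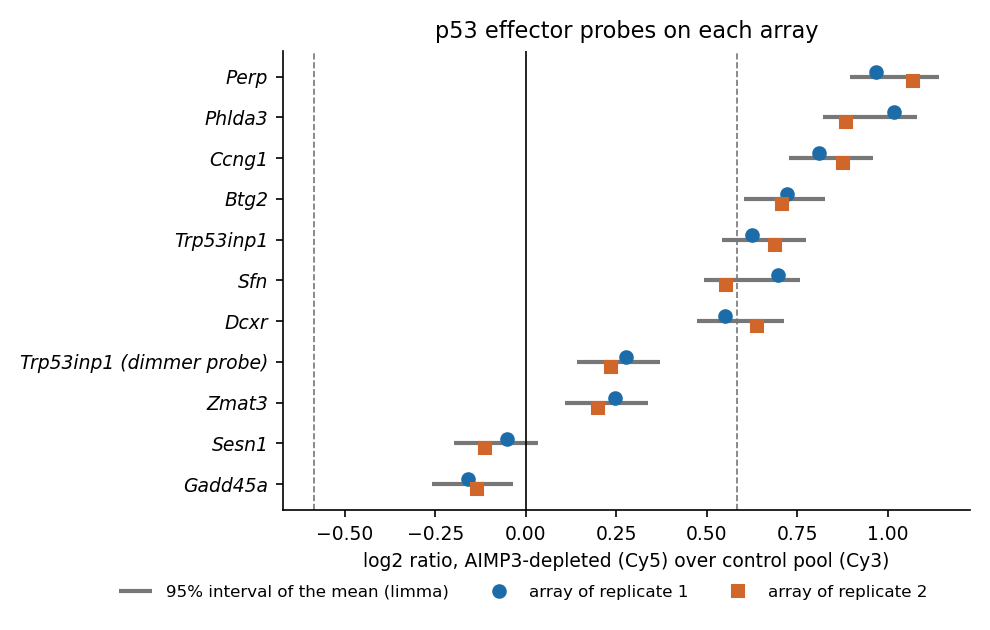
Log2 ratio of AIMP3-depleted over control signal (x axis) of each probe of the p53 effectors. Symbols are the arrays of replicates 1 and 2, grey bars are 95% intervals of the mean by limma, and dashed lines mark 1.5-fold. *Perp* leads with 1.02, and *Zmat3*, *Sesn1* and *Gadd45a* lie between -0.15 and 0.22, with the dimmer *Trp53inp1* probe (0.26) next to *Zmat3*.

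*Ccng1* and *Btg2* belong to the arrest arm. Cyclin G1, the product of *Ccng1*, binds the phosphatase PP2A and takes part in the feedback on p53 through MDM2. *Ccng1* had log2 ratios of 0.81 in replicate 1 and 0.88 in replicate 2, which is 1.79-fold (95% interval 1.66 to 1.94, n = 2 arrays; adjusted p = 5.68e-05 by limma). Its normalized log2 signal went from 12.77 in the control channel to 13.58 in the AIMP3-depleted channel on the first array and from 12.65 to 13.52 on the second. The depleted channel was thus brighter than the control channel of either array. *Btg2* encodes an antiproliferative protein that recruits the CCR4-NOT deadenylase to mRNAs. Its log2 ratios of 0.72 and 0.71 differed least between the arrays among the raised members (1.64-fold, 95% interval 1.53 to 1.77; adjusted p = 8.07e-05 by limma). In signal, *Btg2* went from 10.38 to 11.11 and from 10.31 to 11.02.

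*Gadd45a*, a classical arrest and damage gene, was not raised. Its product binds PCNA and the CDK1 and cyclin B1 complex, and activates the stress kinase MAP3K4. The log2 ratios were -0.16 and -0.13, a mean of -0.15 ± 0.018 (SD, n = 2, adjusted p = 0.0296 by limma). The 95% interval of the fold, 0.839 to 0.972, lay wholly below no change. That interval covers the spread between the arrays only, and not the dye balance or the spread of controls, so it cannot exclude a rise. Its signal was 12.11 in the control and 11.95 in the depleted channel on the first array, and 11.89 and 11.75 on the second. This direction depends on how the dyes were balanced. Before normalization the Cy5 channel was brighter than Cy3 by 1.51-fold and 1.28-fold at this probe, against a median of 1.39-fold and 1.20-fold over all probes. With median centring, the *Gadd45a* log2 ratio was 0.08, against 0.18 for the median of all genes. Relative to the median of all genes, *Gadd45a* was below 0 under all 8 processings, between -0.16 and -0.10.

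*Sfn* encodes 14-3-3σ, which keeps the CDK1 and cyclin B1 complex in the cytoplasm at the G2 checkpoint and is also an epithelial gene. Its log2 ratios were 0.70 and 0.55, with a mean of 0.63 ± 0.10 (SD, n = 2; adjusted p = 0.000223 by limma). The signal rose from 9.99 to 10.68 and from 9.97 to 10.53. Of all members *Sfn* had the largest difference between the arrays, 0.14, and the second array alone lay under 1.5-fold.

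*Phlda3* and *Perp* act at membranes. The PH domain protein PHLDA3 competes with AKT for phosphoinositides and so restrains AKT signalling. Its log2 ratios were 1.02 and 0.89, or 1.93-fold (95% interval 1.77 to 2.11; adjusted p = 5.55e-05 by limma), with the signal going from 13.31 to 14.33 and from 13.25 to 14.13. *Perp* encodes a tetraspan membrane protein that p53 uses in apoptosis and that desmosomes of epithelia need under the control of p63. It had the largest rise of the members, with log2 ratios of 0.97 and 1.07, or 2.03-fold (95% interval 1.87 to 2.20; adjusted p = 4.45e-05 by limma). Its signal went from 14.15 to 15.12 on the first array and from 14.05 to 15.12 on the second. *Perp* stood above 98.9% of all tested genes, and was the only member whose mean passed 2-fold, as 1.17% of all tested genes did.

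Both epithelial-linked members, *Perp* and *Sfn*, rose in RNA in which marker genes of other cell types also rose. Of 12 markers of parietal and primitive endoderm, 12 were raised (5.52% of all tested genes were), with a median log2 ratio of 1.09. They ran from *Gata4* (0.77) through *Dab2*, *Pdgfra*, *Lama1*, *Col4a2*, *Thbd*, *Sox7*, *Gata6*, *Col4a1*, *Sparc* and *Foxa2* to *Sox17* (1.44). Their summed signal went from between 139882 and 148802 in the control channel to between 320780 and 330535 in the depleted channel. Of 11 epithelial markers, the keratins *Krt18* (1.78), *Krt8* (1.36), *Krt19* (1.20) and *Krt7* (1.01) were raised. *Cdh1* (-0.10), *Epcam* (-0.28), *Esrp1* (-0.37) and *Cldn7* (-0.38), which encode adhesion, junction and splicing proteins of epithelia, were below 0 and not called, and *Cdh1* turned to 0.25 with median centring. *Cldn4* (0.16), *Cldn6* (0.13) and *Ocln* (0.08) were not called either, and the sign of *Ocln* changed with the processing. The median of the epithelial list was 0.13, while its summed signal, in which the keratins are included, went from between 112303 and 112343 to between 230898 and 242041. Of 11 fibroblast markers tested, 8 were raised, from *Pdgfrb* (0.62) through *Col5a1*, *Col6a1*, *Twist2*, *Col3a1*, *Pdgfra* and *Col1a2* to *Col1a1* (1.06), and *Thy1* was lowest (0.17). *Pdgfra* is in both this list and the endoderm list. The fibroblast list had summed signals from 95181 to 96009 in the control and from 136361 to 141033 in the depleted channel. Of 12 pluripotent stem cell markers, *Tdgf1* (-0.59) was lowered, under 5 of the 8 processings, and 0 were raised, with *Dppa5a* highest (0.50). With median centring 0 of these markers were lowered and *Dppa5a* was raised (1.03). The median of this list was -0.13 although its summed signal was 1.12-fold and 1.10-fold that of the control, so the median and the sum differ in sign. In such a sum the brightest probes weigh most, and signals of different probes are not on a common scale. A sum therefore does not give the direction of a list. All 12 pluripotent stem cell markers were measured, so the defining genes of the labelled cell type were present. The part of these other cell types in the values of *Perp*, *Sfn* and the other members was not tested. In bulk RNA, more cells of a type and more RNA per cell cannot be told apart.

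**Figure D2:**
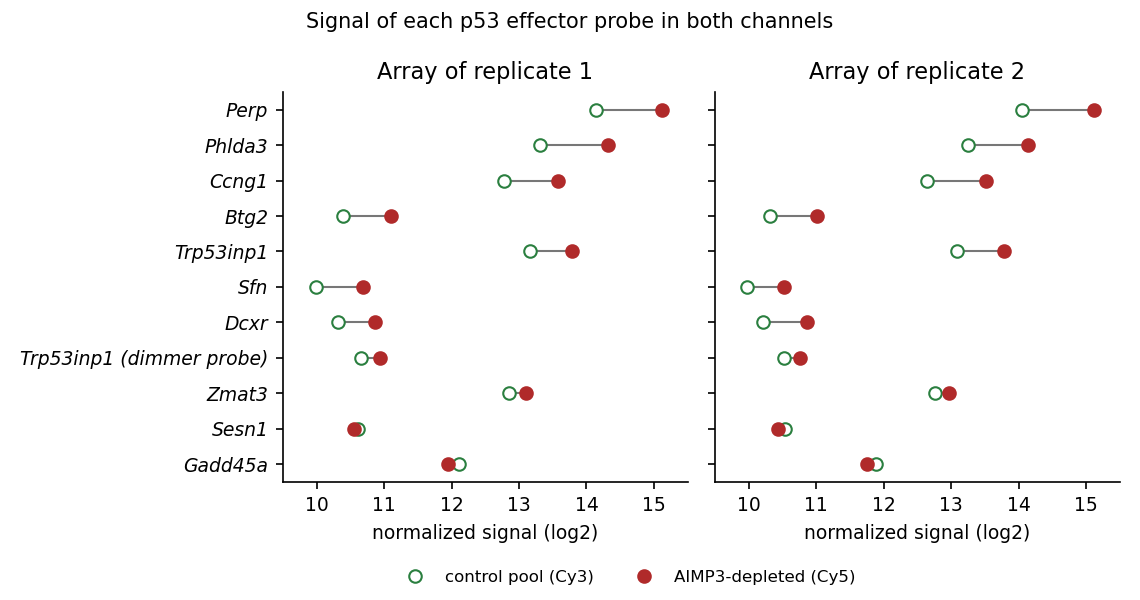
Normalized log2 signal (x axis) of each p53 effector probe in the control pool (open circles, Cy3) and in AIMP3-depleted cells (filled circles, Cy5), with 1 panel per array. The gap within a row is the log2 ratio, about as wide on both arrays and reversed for *Sesn1* and *Gadd45a*; signals of different probes are not on a common scale.

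*Trp53inp1*, *Dcxr*, *Zmat3* and *Sesn1* act in stress signalling, RNA control and metabolism. *Trp53inp1* encodes a protein that helps HIPK2 phosphorylate p53 and that binds LC3 in autophagy. It was the only member with a pair of probes. The brighter probe gave log2 ratios of 0.63 and 0.69, or 1.58-fold (95% interval 1.46 to 1.70; adjusted p = 0.000119 by limma). The dimmer probe gave 0.28 and 0.24, or 1.19-fold, with an adjusted p of 0.00534 over all tested probes by limma, and was not called (4.97% of all tested probes were raised). Both probes were above 0 on both arrays. The brighter probe exceeded the dimmer one by 0.35 and 0.45, while neither probe differed by more than 0.064 between the arrays. The size of the *Trp53inp1* rise therefore depends on the probe, and averaging both gave 0.46, under 1.5-fold. The other 9 members rest on 1 probe each, so no agreement between probes can be shown for them.

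*Dcxr* encodes a reductase of dicarbonyls and xylulose. With log2 ratios of 0.55 and 0.64 it was the raised member closest to 1.5-fold (1.51-fold, 95% interval 1.39 to 1.63; adjusted p = 0.000187 by limma). Its signal went from 10.32 to 10.86 and from 10.22 to 10.86, and the first array alone lay under 1.5-fold. The call was lost with the signals as processed by the scanner software, at a log2 ratio of 0.58.

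*Zmat3*, which encodes a zinc finger protein that binds RNA and regulates splicing, was above 0 by less than 1.5-fold. Its log2 ratios were 0.25 and 0.20, or 1.17-fold (95% interval 1.08 to 1.26; adjusted p = 0.00649 by limma), with signals from 12.85 to 13.10 and from 12.76 to 12.96. With median centring the log2 ratio of *Zmat3* was 0.47, also without a call, against 0.18 for the median of all genes. Relative to that median it was between 0.21 and 0.29 under all 8 processings. *Sesn1* encodes a sestrin, which holds back mTORC1 through the GATOR complexes. Its log2 ratios were -0.05 and -0.11 (0.944-fold, 95% interval 0.875 to 1.02; adjusted p = 0.167 by limma). The interval covers no change and lies wholly below a rise of 1.5-fold, though it holds only the spread between these arrays. The probe is listed under 1 of the 2 RefSeq transcripts of *Sesn1*. With median centring *Sesn1* was at 0.12, and relative to the median of all genes it was between -0.14 and -0.06 under all 8 processings.

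Ordered by fold, the members ran *Perp*, *Phlda3*, *Ccng1*, *Btg2*, *Trp53inp1*, *Sfn*, *Dcxr*, *Zmat3*, *Sesn1* and *Gadd45a*. The 95% intervals of neighbours overlapped everywhere in this order except between *Dcxr* and *Zmat3* and between *Zmat3* and *Sesn1*. Those of *Perp*, *Phlda3*, *Ccng1* and *Btg2* lay wholly above 1.5-fold, while those of *Trp53inp1*, *Sfn* and *Dcxr* reached below it. On both arrays 5 members passed 1.5-fold (4.69% of all tested genes), namely *Perp*, *Phlda3*, *Ccng1*, *Btg2* and *Trp53inp1*. Set beside the promoter sequences, *Ccng1* was raised while *Gadd45a* and *Sesn1* were not, and the raised *Btg2*, *Phlda3*, *Sfn* and *Dcxr* had no match in their windows. The *Sesn1* match lies at its downstream promoter, and whether its probe reads RNA from that promoter was not tested.

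**Figure D3:**
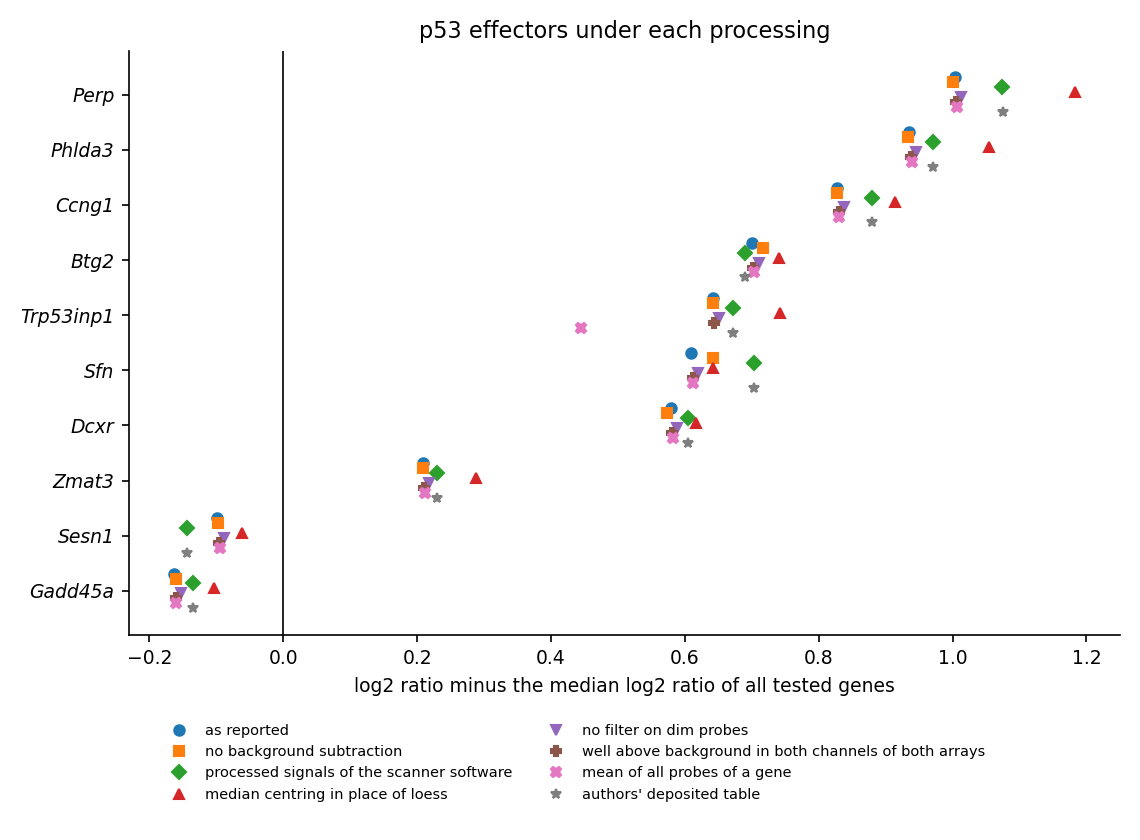
Mean log2 ratio of each p53 effector minus the median over all tested genes (x axis) under 8 processings of the same arrays, 1 symbol each. The order changes little; *Trp53inp1* falls to 0.44 when its probes are averaged, and *Gadd45a* and *Sesn1* lie below 0 throughout.

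Most of the members belong to small gene families, and 24 paralogs outside the 10 members were looked up, of which 23 were tested. Some of them, such as *Sesn2* and *Btg3*, are known p53 targets too. Of these, 3 were raised and 0 lowered, with a median log2 ratio of 0.11. The raised paralogs were *Phlda1* (mean 1.60), *Trp53inp2* (0.81) and *Gadd45g* (0.78). Each was raised under all 8 processings. *Phlda1*, an early response gene of growth factor signalling, thus had a larger ratio than *Phlda3*, while the imprinted *Phlda2* was at 0.04. In the Gadd45 family *Gadd45g* was raised, *Gadd45b* lay at 0.46 and was raised with median centring only, and *Gadd45a* was at -0.15. Among the sestrins *Sesn2* (0.32) and *Sesn3* (-0.24) had opposite signs on either side of *Sesn1*. *Trp53inp2*, an autophagy factor, had a ratio above that of *Trp53inp1*.

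In the other families the member had the highest mean ratio, although *Zmat3* and *Zmat1* lay within the spread of their arrays. Next to *Btg2*, the antiproliferative paralogs *Btg1* (0.34), *Tob2* (0.20), *Btg3* (0.12) and *Tob1* (0.11) were not called, and *Btg4* was too dim to test. *Ccng2* was at 0.06 and *Ccni*, which encodes cyclin I, at -0.33, the lowest of all paralogs. The zinc finger paralogs of *Zmat3* lay between -0.07 (*Zmat2*) and 0.20 (*Zmat1*), with *Zmat4* at -0.01 and *Zmat5* at 0.06. The 14-3-3 genes, paralogs of *Sfn*, spanned -0.08 to 0.19 in the order *Ywhaz*, *Ywhaq*, *Ywhag*, *Ywhae*, *Ywhab* and *Ywhah*. The signs of *Ywhaq*, *Ywhaz*, *Zmat2*, *Zmat4* and *Zmat5* changed with the processing, so they have no settled direction.

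**Figure D4:**
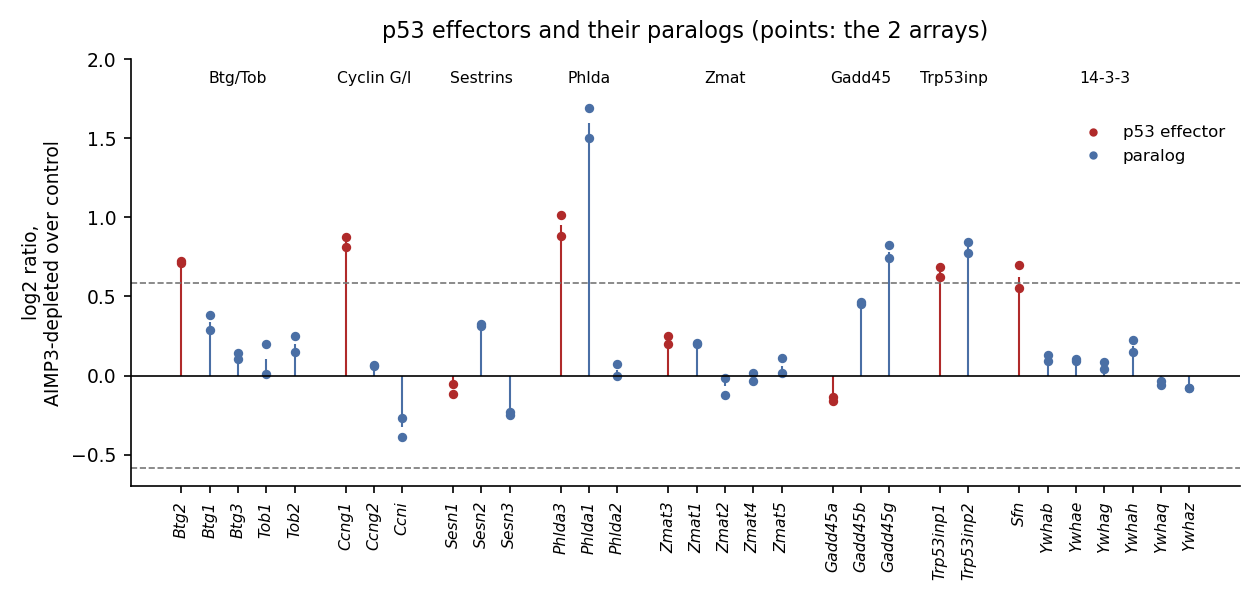
Log2 ratio of AIMP3-depleted over control (y axis) of the p53 effectors other than *Perp* and *Dcxr* (red) and of the tested paralogs (blue), by gene family. Points are the 2 arrays, stems reach the mean, and dashed lines mark 1.5-fold. *Phlda1*, *Trp53inp2* and *Gadd45g* are the paralogs above the upper line.

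Genes whose products work with the members were followed as well. Of 29 partner genes 3 were raised (10.3%, against 5.52% of all tested genes) and 0 lowered, with a median log2 ratio of 0.05. With median centring 8 partners were raised and their median was 0.27. That processing raised 2827 of all 24052 genes and put the median of all genes at 0.18. The other processings gave between 2 and 4 raised partners. The raised partners were *Dsp* (1.20 and 1.16), *Dsc2* (0.83 and 0.96) and *Gabarap* (0.55 and 0.70). *Dsp* and *Dsc2* encode desmosome proteins, of the junction that PERP serves, and *Gabarap* encodes an autophagy protein of the LC3 family, which TP53INP1 binds. A second *Dsp* probe gave 0.51, and *Gabarap* lost its call when its probes were averaged. The other desmosome genes were *Pkp2* at 0.46, *Dsg2* at 0.24 and *Jup* at 0.11. A dimmer *Dsg2* probe gave -0.083, so the probes of *Dsg2* differ in sign. The arrays of *Jup* differed in sign, with 0.25 and -0.03. *Akt1*, the kinase that PHLDA3 restrains, was at 0.58, just under the threshold, and was raised under 2 of the 8 processings. *Map1lc3b*, which encodes LC3B, was at 0.57, and like *Pkp2* it was raised under 1. Of the partners of GADD45A and 14-3-3σ, *Pcna* (-0.33), *Cdc25c* (-0.32) and *Ccnb1* (-0.30) were below 0 without a call, with *Pcna* turning to 0.038 under median centring, and *Cdk1* was at 0.05. *Jup* and *Cdk1* have no settled direction, since with the scanner software's processing they were at -0.019 and -0.010. The lowest partner was *Seh1l* (-0.37), a subunit of the GATOR complex on which sestrins act.

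Another 50 genes that p53 is known to activate were grouped by role. Of these, 8 were raised (16%, against 5.52% of all tested genes) and 0 lowered. A positive mean was found for 39 (78%, against 52.7% of all tested genes), and the median log2 ratio was 0.25. The number raised was between 7 and 9 under the other processings except median centring, with which it was 20. Median centring also gave 2827 raised among all 24052 genes and moved their median to 0.18. Among 10 feedback and arrest genes 3 were raised, namely the kinase gene *Plk2* (1.31 and 1.56), *Cdkn1a* (1.10 and 1.32), which encodes p21, and *Mdm2* (1.08 and 1.05). A second *Cdkn1a* probe gave 0.28. The phosphatase gene *Ppm1d* was at 0.55 without a call, though raised under 3 of the 8 processings, and the lowest of the group was *Cop1* (-0.14, or 0.095 with median centring).

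Cell death, repair and metabolism make up most of the remaining p53-activated genes. Raised were 7.14% of the cell death and 8.33% of the metabolic genes, near the 5.52% of all tested genes. Of 14 cell death genes 1 was raised, the death receptor gene *Fas* (0.75 and 0.77), and the lowest were *Ei24* (-0.20) and *Bax* (-0.20), and both lay above 0 with median centring. Of 6 DNA repair genes 0 were raised, with *Polk* highest (0.43) and *Xpc* lowest (-0.16, or 0.043 with median centring). Of 12 metabolic genes 1 was raised, the glutathione peroxidase gene *Gpx1* (0.55 and 0.63). *Ddit4* was lowest at -0.29, with 0.02 on one array and -0.60 on the other, so its arrays disagree, and it was at 0.044 with median centring. Of 8 genes of secreted and surface proteins 3 were raised, among them *Thbs1* (1.13 and 1.27) and *Epha2* (0.51 and 0.66), the second of which lost its call without background subtraction. The lowest was *Lif* (-0.07), whose arrays differed in sign (-0.17 and 0.03) and which lay between -0.35 and -0.07 over the processings. No difference between these groups and the 10 members was tested, and the medians of the groups lay between 0.18 and 0.40, against 0.64 for the members. Members and groups were chosen with earlier results of these data known, so the order of the medians is a description only.

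**Figure D5:**
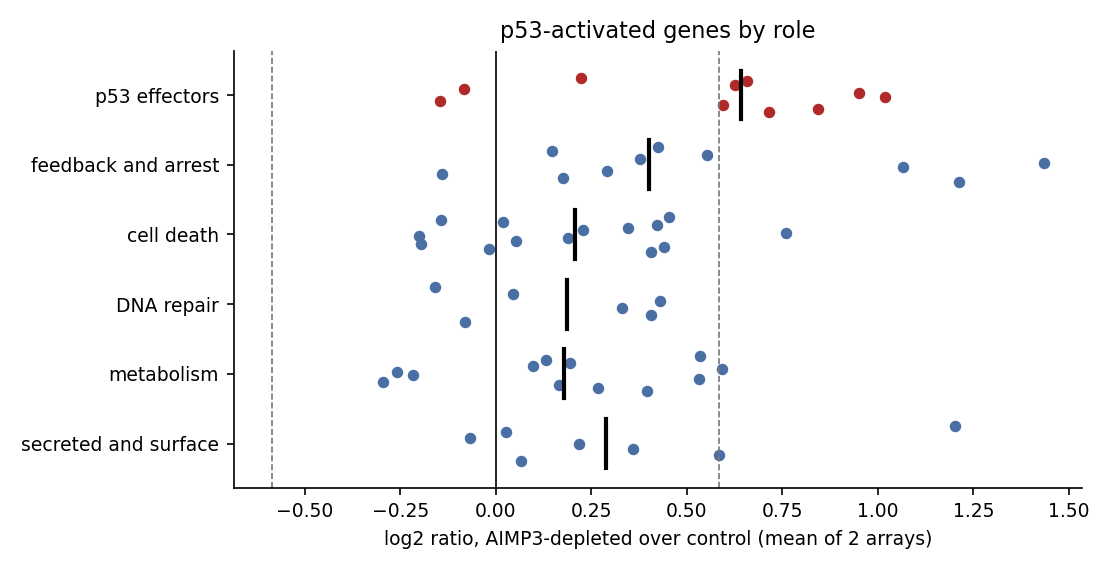
Mean log2 ratio over the 2 arrays (x axis) of the p53 effectors (red) and of other p53-activated genes by role (blue). Each point is a gene, black bars are medians over each whole group, dashed lines mark 1.5-fold, and 1 gene of the lowest row is not drawn. The median of the p53 effectors, 0.64, lies right of the other medians, and each group reaches below or close to 0.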

How the data were processed

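RNA of 2 AIMP3-depleted replicates (Cy5) and 1 control pool (Cy3) was measured on 2 arrays of 1 slide. The authors deposited scanner output of Feature Extraction (version 11.5.1.1 per the file headers) with unnormalized intensity for spots and their surrounding background, and processed intensities after the software's own background and dye correction. The value table that the authors deposited gives log2 ratios normalized in GeneSpring. It matched the log2 ratio of the processed intensities within 0.01, after a shift of 0.040 and 0.039, for 99.8% of probes, so its scale and direction are settled, and its column medians were 0.0909 and 0.111. All columns of per-sample values were used.

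Median spot intensities were corrected with normexp (offset 50) and loess in limma, without control or flagged spots, and then averaged by probe. The filter kept 33043 of 55681 probes, those that each array showed well above background in either channel. The brightest probe stood for a gene, and 15005 of 24052 genes had a RefSeq name. Ratios were tested against 0 with lmFit and eBayes (1 residual and 5.31 prior degrees of freedom). Nothing says the replicates were separate cultures, so p-values measure the spread between these samples, which may be technical, and precision is limited by having 2 arrays. Simulated on these arrays and 24052 genes, 87 of 87 genes changed by a log2 ratio of 1 and 113 of 113 changed by 2 were called in the right direction, with 0 unchanged genes called.

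Members and lists were chosen with earlier results of these data known. Named are all members, *Eef1e1*, *Trp53*, every paralog, and in other lists the called, lowest and highest genes, and other list genes named were chosen after their values were seen. The value of 1 raised gene of the secreted and surface list is not reported here. Alternatives were no background subtraction, processed intensities, median centring, no filter and a stricter one, the mean of probes, the authors' table, the methods' t-test, 2-fold, and each replicate left out. Those for probe counts were chosen after seeing the data. Analyses ran in R 4.3.3 with limma 3.58.1.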

Additional observations from a re-analysis of the deposited data

How the results depend on the processing

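Of the 7 raised members, *Perp*, *Phlda3*, *Ccng1*, *Btg2* and *Sfn* were called under all 8 processings, *Dcxr* was lost with signals as processed by the scanner software (0.58) and *Trp53inp1* with the mean of its probes (0.46). Median centring turned *Sesn1* (0.12), *Gadd45a* (0.077) and the median of the pluripotent stem cell markers (0.10) above 0 while it moved the median of all genes from 0.02 to 0.18. The split of genes raised and lowered, 1328 and 190 as reported, moved to 2827 raised and 64 lowered with median centring, which changes the dye normalization alone. With processed signals 1949 were raised and 777 lowered, and the authors' table gave 2140 raised and 617 lowered, where background and dye correction change together. Raised probes numbered 1641 as reported, 2560 with processed signals, 3382 with median centring and 2810 in the authors' table. The methods' t-test at an unadjusted p under 0.05 called 866 genes raised, 128 lowered, 1048 probes raised and 6 members, losing *Sfn* (0.63). After Benjamini-Hochberg adjustment that test called 0 genes raised, 0 lowered, 0 probes and 0 members, with unchanged log2 ratios of 0.72 for *Btg2*, 0.84 for *Ccng1*, 0.95 for *Phlda3*, 1.02 for *Perp*, 0.66 for *Trp53inp1*, 0.63 for *Sfn* and 0.59 for *Dcxr*, while limma called 7 members. At 2-fold, 281 genes were raised and 17 lowered, 333 probes were raised, and 1 member, *Perp*, remained. With a single array, a value with no test, genes past 1.5-fold numbered 1323 to 1398 raised and 199 to 253 lowered, probes 1633 to 1718, and members 6 to 6 raised and 0 to 0 lowered. Without replicate 2 *Dcxr* was under 1.5-fold, and without replicate 1 *Sfn* was, and the median of the partner list was -0.013. The ratios compare depleted and control RNA within each array. Depleted cultures could not be paired with control cultures of their own, because there was 1 control pool. The cause of these changes was not tested. The signal over background, 2.68 to 3.31 in the median, and the count of 2 arrays limit how small a difference could be seen.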
